A study of Mus musculus with 29 samples.

Results

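Expression of 9 genes for subunits of cytochrome c oxidase and a related assembly protein was followed in subcutaneous white fat of mice. They were taken by symbol and not by a rule on measured values, but earlier results of these data were known when they were chosen. They make up 9 of the 17536 genes that both deposited tables of FPKM (fragments scaled by transcript length and by the mapped reads of a library) share. The 4 pairs, written here with the tissue-restricted isoform first, are Cox4i2/Cox4i1, Cox6a2/Cox6a1, Cox7a1/Cox7a2 and Cox8b/Cox8a, and Cox7a2l is the ninth gene. All 9 passed the filter on low values, which 13174 genes passed.

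Cytochrome c oxidase, complex IV of the mitochondrial respiratory chain, passes electrons from cytochrome c to oxygen and pumps protons across the inner membrane. Several of its small, nuclear-encoded subunits exist as a ubiquitous, or liver-type, isoform and as an isoform restricted to a few tissues. Cox6a2, Cox7a1 and Cox8b are the isoforms of heart and skeletal muscle, and Cox7a1 and Cox8b are also abundant in brown fat, where they serve as marker genes of thermogenic adipocytes. Agonists of the β3-adrenergic receptor, such as CL316,243, are known to induce thermogenic (beige) adipocytes in the subcutaneous white fat of mice.

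The study asked how sex and loss of the nuclear receptor coactivator Ncoa1 bear on the answer of this depot to CL316,243 (CL). Mice were wild type (WT) or Ncoa1 knockouts (KO), female or male, and were given either CL, injected into the peritoneum over 7 days at a dose of 0.5 mg/kg, or NaCl (saline). With CL there were 4 WT males, 4 KO males, 4 WT females and 3 KO females, and with saline there were 4 WT males, 3 KO males, 2 WT females and 3 KO females. The labels give neither strain nor age, nor which exons or cells the knockout affects, and no label says whether replicate mice were littermates, so the p-values measure the spread between these samples.

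The 29 columns of FPKM stand in 2 tables made separately. They were taken as 27 mice, since both tables carry a column for 2 of the names (Female_WT_NaCl replicate 3 and Male_KO_NaCl replicate 3), which may still be different mice. The second table also holds Female_WT_NaCl replicate 1, Female_KO_NaCl replicate 1 and Male_KO_NaCl replicate 2, so both saline WT females have values in it. Summed FPKM per column lay between 563251 and 707150, and the absolute depth is unknown. Ncoa1 stood at 1.47 to 2.9 FPKM in every KO column and at 4.93 to 9.16 in every WT column. The summed FPKM of 8 adipocyte markers ranged from 26869 to 76119.9, and that of heart muscle (3 of 5 markers in the tables) from 1 to 8.74. Skeletal muscle markers set 4 libraries apart from the other 25 columns: Female_KO_NaCl replicate 2 (F22), Male_WT_CL replicate 4 (M14), Male_KO_NaCl replicate 1 (M21) and Male_KO_CL replicate 4 (M34). The summed FPKM of 16 such markers was 78789.6 in F22, 5264 in M14, 4771 in M21 and 1341 in M34, against 61.6 to 392 elsewhere. The highest sums elsewhere, 392 and 337, were in Male_KO_NaCl replicate 3 (first table) and replicate 2, against at most 145 in the rest. Since 3 of the 4 restricted isoforms are muscle genes, the main results on them are also given without these 4 libraries. Saline KO males still carry muscle marker RNA in those results. In bulk tissue, fewer cells of a type and less RNA per cell cannot be told apart.

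The promoters of 3 members are shown to set a ubiquitous isoform, Cox6a1, beside the restricted isoforms that rose with CL, Cox7a1 and Cox8b. RefSeq's table for GRCm38.p6 held promoters for 6 of the 9 genes (not Cox4i1, Cox4i2 or Cox6a2), and the 250 bases before the start are printed on the gene's strand, at chr5:115348959-115349208 (minus strand) for Cox6a1, chr7:30183921-30184170 (plus strand) for Cox7a1 and chr7:140900447-140900696 (minus strand) for Cox8b. Capitals mark matches to a searched motif.
Cox6a1: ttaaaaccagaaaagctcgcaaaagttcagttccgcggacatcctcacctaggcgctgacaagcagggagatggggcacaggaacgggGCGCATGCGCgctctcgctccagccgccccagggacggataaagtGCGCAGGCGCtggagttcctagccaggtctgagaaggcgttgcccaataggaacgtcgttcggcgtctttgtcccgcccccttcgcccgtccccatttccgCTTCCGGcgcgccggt
Cox7a1: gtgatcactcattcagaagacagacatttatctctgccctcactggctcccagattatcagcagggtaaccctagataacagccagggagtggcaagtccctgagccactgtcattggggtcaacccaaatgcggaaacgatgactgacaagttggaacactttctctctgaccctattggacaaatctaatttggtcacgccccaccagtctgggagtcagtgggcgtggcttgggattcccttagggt
Cox8b: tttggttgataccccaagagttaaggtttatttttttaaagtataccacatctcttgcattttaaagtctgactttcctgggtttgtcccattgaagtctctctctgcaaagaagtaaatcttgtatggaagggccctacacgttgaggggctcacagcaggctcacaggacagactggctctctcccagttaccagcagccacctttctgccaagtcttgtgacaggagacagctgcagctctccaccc
The 4 motifs were searched on both strands, with overlaps between motifs allowed: TCAAGGTCA, an element of estrogen-related receptors, present in 0.387% of 32851 promoters of this length; TGACGTCA, the cyclic AMP response element, in 1.55%; the palindromic element of NRF1, nuclear respiratory factor 1, in 3.74%; and CCGGAAG, an ETS element, in 6.91%. Cox6a1 held the NRF1 element 162 to 153 and 117 to 108 bases before the start, and the reverse complement of the ETS letters 16 to 10 bases before it. The windows of the other 5 genes held none of the 4 motifs, and those of Cox7a1 and Cox8b therefore carry no capitals. GC content was 62.8% in Cox6a1, 51.2% in Cox7a1 and 47.2% in Cox8b.

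Levels are given on the FPKM scale, which is per transcript length, and positions are those of RefSeq on GRCm38.p6. Cox4i1, the ubiquitous subunit 4 (gene ID 12857, chromosome 8, 120668225 to 120674209), averaged 995 FPKM in saline KO females and 2561 in CL-treated WT females, the lowest and highest of its 8 group means. Cox4i2 (gene ID 84682, chromosome 2, 152753916 to 152765039), its partner, which is known from lung and from vascular mural cells, averaged 7.36 to 12.4 FPKM. Cox6a1 averaged 819.7 to 3411 FPKM and Cox8a 860.0 to 2327, while Cox7a2 averaged 192 to 477. Cox7a1 ran from 31.4 to 706.5 FPKM and Cox8b from 379 to 3523. Cox8b was thus the restricted isoform with the highest level, and in some groups it exceeded its ubiquitous partner.

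**Figure D1:**
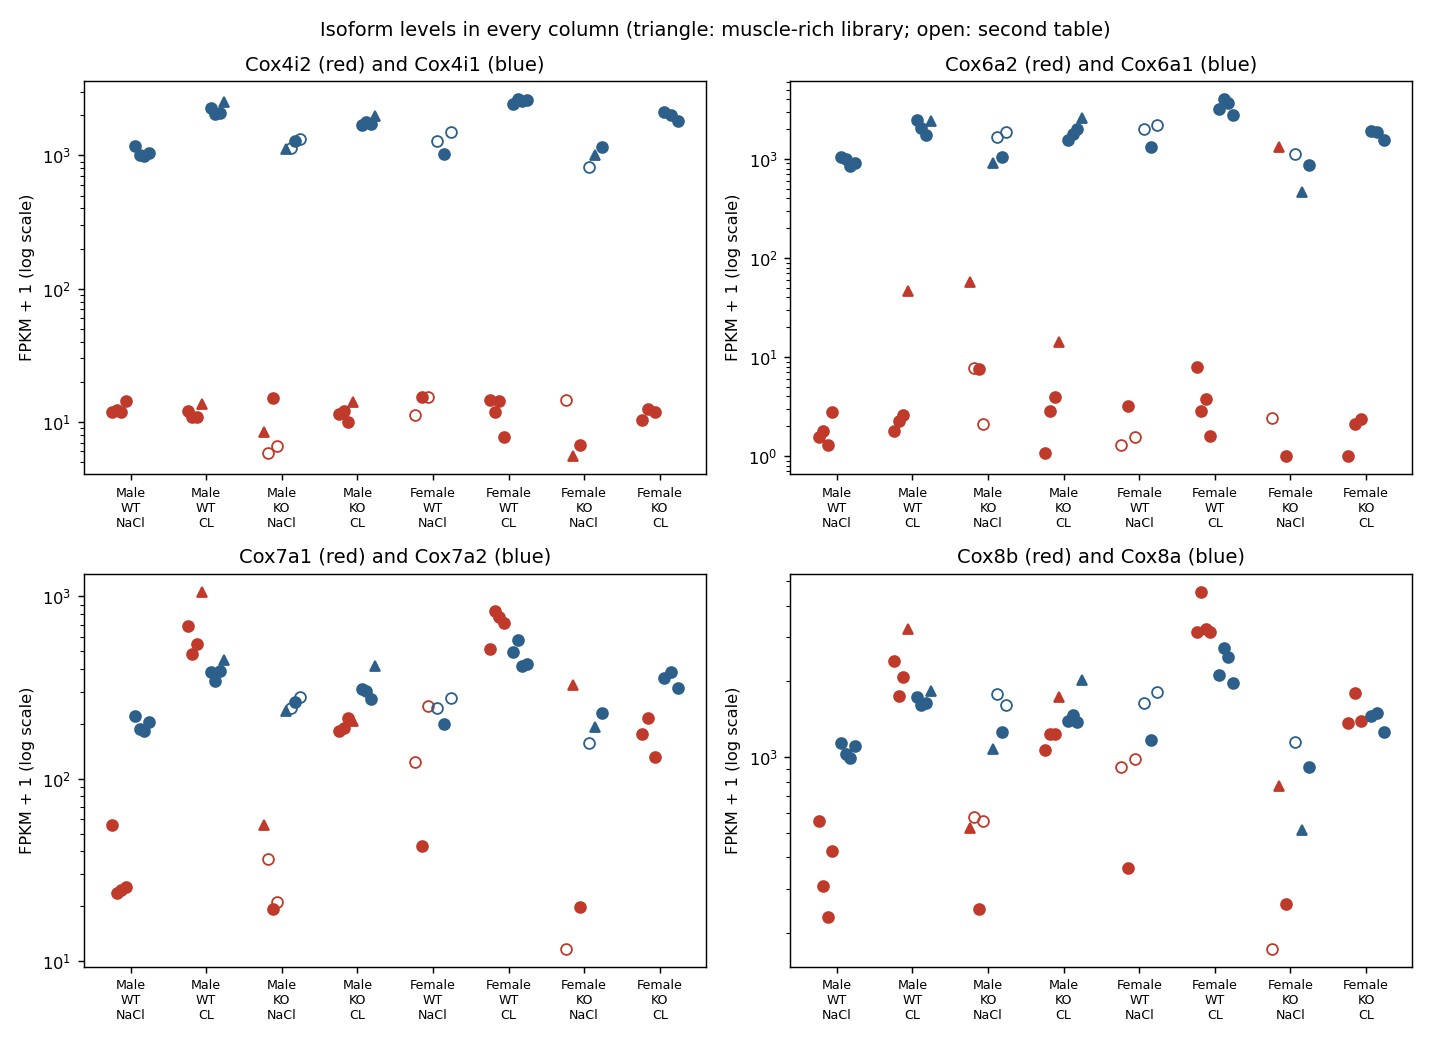
FPKM + 1 (log axis) of the restricted isoform (red) and its ubiquitous partner (blue) in each of the 29 columns, 1 panel per pair; triangles are the 4 muscle-rich libraries and open symbols come from the second table. Cox7a1 and Cox8b lie above their partners in CL-treated wild-type mice, Cox4i2 lies far below Cox4i1 throughout, and Cox6a2 exceeds 6.88 FPKM in the 4 muscle-rich libraries.

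Cox7a1, the muscle and brown-fat form of subunit 7a (gene ID 12865, chromosome 7, 30184171 to 30186030), rose more than any other member after CL in WT males. Its saline values there were 55.1, 22.6, 23.4 and 24.5 FPKM, and its CL values 691, 484, 550.2 and 1062, with no overlap. In WT females the saline values were 122.5 for replicate 1 and 41.6 (first table) and 249 (second table) for replicate 3, below the CL values of 512, 827, 769.9 and 717. In KO males, saline values of 54.5, 35.3 and, for replicate 3, 18.3 and 20.1 stood below CL values of 182, 189.5, 214 and 207. In KO females, CL values of 174, 215 and 131 lay above 10.7 and 18.8 but below the 326 of the muscle-rich F22. In ascending order the group means were, in FPKM, saline WT males 31.4 ± 15.8 (SD, n = 4), saline KO males 36.3 ± 17.7 (n = 3), saline KO females 118 ± 179.7 (n = 3), saline WT females 134 ± 16.1 (n = 2), CL KO females 173 ± 41.9 (n = 3), CL KO males 198 ± 14.5 (n = 4), CL WT males 697 ± 258 (n = 4) and CL WT females 706.5 ± 137 (n = 4). Each group's range overlapped that of the next in this order, except that CL KO males (highest 214) lay below CL WT males (lowest 484).

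In the fit, with log2(FPKM + 1) values adjusted for the table, Cox7a1 rose by 4.47 ± 0.57 (SE) in WT males (limma adjusted p 1.83e-05). Differences of 1.72 ± 0.71 in KO males (adjusted p 0.153), 1.41 ± 0.88 in WT females (0.351) and 1.47 ± 0.70 in KO females (0.222) missed the threshold of 0.05. Without the 4 muscle-rich libraries all 4 passed, at 4.24 (7.55e-07), 2.75 (0.0166), 2.52 (0.0135) and 3.42 (0.000321). None of these libraries is in WT females, so the difference there could move only through the table term, which all groups share. Without F22 alone, the change in KO females was 3.21 (0.000324). In WT females the value turns on how the table is treated: it was 2.62 (0.0287) with no table term, 2.99 (0.0233) when only first-table values of the repeated mouse entered and 0.09 (0.962) when only second-table values did. In KO males it was 2.53 (0.0148) with no table term.

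Cox7a2, the ubiquitous form of subunit 7a (gene ID 12866, chromosome 9, 79755241 to 79771422), changed by less. Its saline columns held 181 to 221 FPKM in WT males, 198 to 275 in WT females, 233 to 280.5 in KO males and 155 to 229 in KO females, and its CL columns 342 to 448, 416 to 575, 272 to 415 and 312 to 386 in the same order. Saline and CL values overlapped in KO males only. It rose by 0.98 ± 0.13 in WT males (adjusted p 4.93e-05), 0.85 ± 0.21 in WT females (0.0301) and 0.82 ± 0.17 in KO females (0.00429), and differed by 0.27 ± 0.17 in KO males (0.354). Its call in WT females was lost without CL replicate 2 or either saline mouse. The gene overlaps Tmem30a and the predicted gene Gm51685, and whether counting used strand is not stated.

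Within a library, the share of Cox7a1 in the summed FPKM of Cox7a1 and Cox7a2 does not depend on how that library was scaled. It went from 13.3% ± 4.47 (SD, n = 4) to 63.0% ± 5.60 (n = 4) with CL in WT males and from 12.8% ± 6.17 (n = 3) to 38.3% ± 4.43 (n = 4) in KO males. In WT females it went from 32.4% and 33.6% in the 2 mice to 59.4% ± 6.16 (n = 4). The 32.4% averages 2 unlike columns of saline replicate 3, whose first-table column held 17.4% and whose second-table column held 47.5%. The 33.6% of replicate 1 is a second-table value, so the closeness of the 2 saline mice rests on that averaging. In KO females the share went from 25.6% ± 32.3 (n = 3) to 32.7% ± 3.09 (n = 3). Without F22 the saline value of KO females was 7.01% ± 0.813 (n = 2). Cox7a1 made up more than 50% of the pair in 8 of 8 CL-treated WT columns (51.0% to 70.3%), in 0 of 7 CL-treated KO columns (29.6% to 44.0%), and in 1 of 7 saline KO columns, F22 at 62.9%. The saline WT columns ran from 10.8% to 47.5%.

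**Figure D2:**
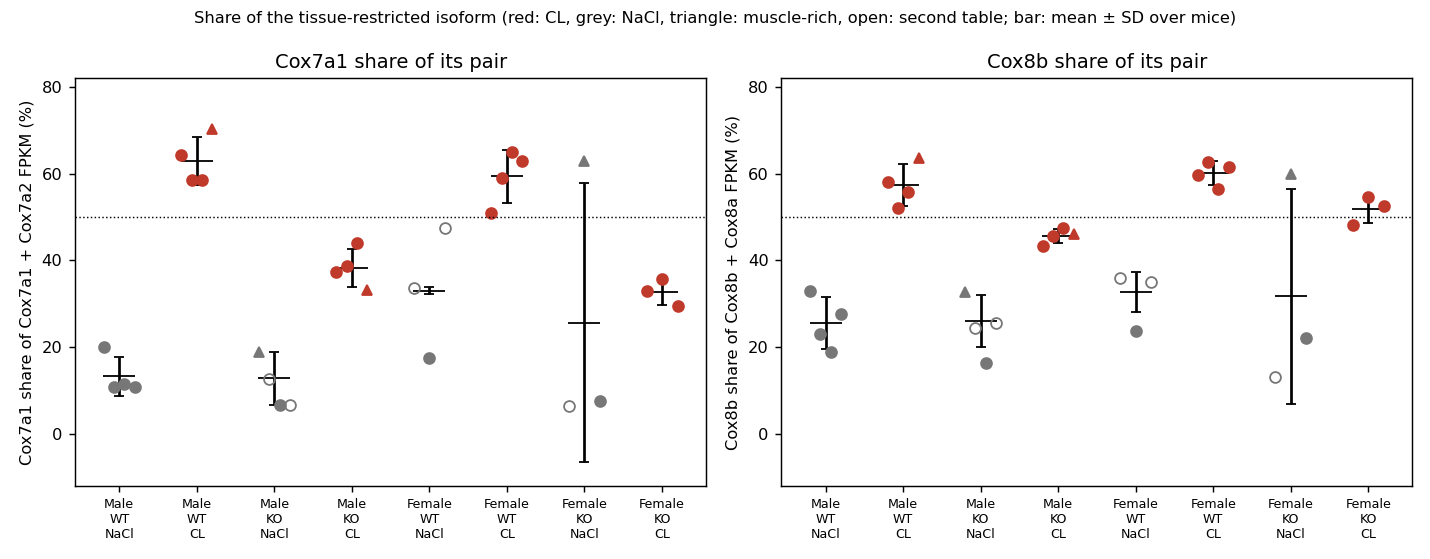
Share of the restricted isoform in the summed FPKM of its pair, in percent, for Cox7a1 and Cox8b in each column of the 8 groups; bars are the mean ± SD over mice and the dotted line marks 50%. For Cox7a1 the 8 CL-treated wild-type columns lie above the line and the 7 CL-treated knockout columns below it.

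The log2 ratio of Cox7a1 to Cox7a2 was tested by exact two-sided permutation of mice within the 4 strata of sex and genotype, with p-values adjusted over the 4 pairs. CL raised it by 2.11 on average (exact permutation p 8.03e-05, adjusted 0.000161), higher in 4 of 4 strata, and by 2.56 without the muscle-rich libraries (adjusted 3.81e-05). The stratum differences were 3.49 in WT males, 2.17 in KO males, 1.64 in WT females and 1.14 in KO females. Permuting genotype within sex and treatment gave a difference of −1.07 (exact permutation p 0.0242, adjusted 0.0969), lower in the knockout in 4 of 4 strata. Without the 4 muscle-rich libraries this was −1.47 (adjusted exact permutation p 0.000381). Without F22 alone it was −1.44 (adjusted 0.000669), and without M21 alone −1.17 (adjusted 0.0472). Under CL alone the knockout difference was −1.46 in males (exact permutation p 0.0286, the smallest that 4 against 4 mice can give, adjusted 0.0381) and −1.60 in females (exact permutation p 0.0286, the smallest that 3 against 4 can give, adjusted 0.114 over the 4 pairs). Leaving out any 1 mouse ended the call in males (adjusted exact permutation p 0.0571), although 3 against 4 mice can still reach 0.0286. The adjustment is shared over the 4 pairs. In each of these leave-outs the adjusted exact permutation p of Cox8b/Cox8a or of Cox4i2/Cox4i1 rose further, to 0.0762.

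Cox8b, the muscle and brown-fat form of subunit 8 (gene ID 12869, chromosome 7, 140898942 to 140900446), rose with CL in WT males and in females of both genotypes. Its saline values in WT males were 555, 306, 231 and 424 FPKM, and its CL values 2414, 1746, 2078 and 3221. In WT females they were 917 for replicate 1, 362 and 980.1 for the first-table and second-table columns of replicate 3, and with CL 3148, 4553, 3231 and 3159. In KO males they were 523, 576 and, for replicate 3, 248 and 554, and with CL 1068, 1238, 1241 and 1729. In KO females they were 172, 768 (F22) and 259.6, and with CL 1363.5, 1795 and 1398. Saline and CL values overlapped in none of the 4 strata, F22 included.

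Cox8b rose with CL by 2.68 ± 0.33 in WT males (adjusted p 1.26e-05), 1.83 ± 0.51 in WT females (0.0484) and 2.03 ± 0.40 in KO females (0.00381), and differed by 1.16 ± 0.41 in KO males (0.0915). In WT females the call was lost without any 1 of CL replicates 1, 2 and 3 or of the saline mice (adjusted p 0.0506 to 0.318). Without the 4 muscle-rich libraries the change was 2.52 (1.08e-05) in WT males, 2.25 (0.0135) in WT females, 2.84 (0.000572) in KO females and 1.37 (0.107) in KO males. In WT females, which hold none of these libraries, the change moved only through the table term. The group means were 379 ± 142 (SD, n = 4) in saline WT males, 400.0 ± 322 (n = 3) in saline KO females, 500.1 ± 89.8 (n = 3) in saline KO males and 794 ± 174 (n = 2) in saline WT females. With CL they were 1319 ± 285 (n = 4) in KO males, 1519 ± 239.8 (n = 3) in KO females, 2364 ± 633 (n = 4) in WT males and 3523 ± 688 (n = 4) in WT females. In that order of 8 the ranges of each group and the next overlapped, except between saline WT females and CL KO males (highest 980.1 against lowest 1068).

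Cox8a, the ubiquitous form of subunit 8 (gene ID 12868, chromosome 19, 7215158 to 7217616), held 994 to 1133 FPKM in saline WT males, 1171.5 to 1814 in saline WT females, 1074 to 1789 in saline KO males and 514 to 1152 in saline KO females. With CL it held 1605 to 1840.1, 1969 to 2719, 1375 to 2023 and 1262 to 1496 in the same order, which overlapped saline in KO males only. It rose by 0.68 ± 0.15 in WT males (adjusted p 0.00492), 1.11 ± 0.23 in WT females (0.0145) and 1.02 ± 0.19 in KO females (0.00199), and differed by 0.49 ± 0.19 in KO males (0.124). In WT females its call was lost without either saline mouse. The share of Cox8b in its pair went from 25.6% ± 6.04 to 57.4% ± 4.83 in WT males, from 26.0% ± 6.06 to 45.7% ± 1.67 in KO males, from 32.6% ± 4.66 to 60.1% ± 2.74 in WT females and from 31.7% ± 24.9 to 51.8% ± 3.20 in KO females (17.6% ± 6.45 on saline without F22). Cox8b made up over 50% of the pair in 8 of 8 CL-treated WT columns (52.1% to 63.6%) and in 2 of 7 CL-treated KO columns (43.4% to 54.5%). Within each sex the genotypes did not overlap under CL, at 48.3% to 54.5% against 56.4% to 62.6% in KO and WT females and 43.4% to 47.4% against 52.1% to 63.6% in KO and WT males. CL raised the log2 ratio of the pair by 1.59 (exact permutation p 6.8e-06, adjusted 2.72e-05), higher in 4 of 4 strata, and by 1.86 without the muscle-rich libraries (adjusted 3.81e-05). The knockout difference was −0.35 (exact permutation p 0.295, adjusted 0.394), and −0.62 without the muscle-rich libraries (adjusted 0.0021) or −0.59 without F22 alone (adjusted 0.00592). It was −0.49 in CL-treated females (exact permutation p 0.0571, adjusted 0.114) and −0.68 in CL-treated males (exact permutation p 0.0286, adjusted 0.0381), a call lost without any 1 of the 8 mice (adjusted exact permutation p 0.0571 or 0.0762).

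Cox6a1, the ubiquitous form of subunit 6a (gene ID 12861, chromosome 5, 115345652 to 115348958), held 850.2 to 1039.9 FPKM in saline WT males, 1322 to 2204 in saline WT females, 914 to 1855 in saline KO males and 466 to 1132 in saline KO females. With CL it held 1753 to 2445, 2758 to 4038, 1548 to 2592 and 1559.6 to 1928 in the same order. The groups overlapped in KO males only, where the second-table columns were the highest of the saline columns. It rose by 1.18 ± 0.18 in WT males (adjusted p 0.000136), 1.01 ± 0.22 in KO males (0.00865), 1.47 ± 0.27 in WT females (0.00839) and 1.48 ± 0.22 in KO females (0.000329). The call in KO males was lost without M21 (adjusted p 0.101) and without all 4 muscle-rich libraries (0.55, adjusted p 0.247). Cox4i1 was the other gene that rose in all 4 strata.

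Cox6a2, the muscle form of subunit 6a (gene ID 12862, chromosome 7, 128205435 to 128206366), was highest in the 4 libraries with the most muscle marker RNA. It stood at 1322 FPKM in F22, 56.5 in M21, 45.3 in M14 and 13.3 in M34, and at 0 to 6.88 in the other 25 columns, where the median was 1.25, 2 columns were at 0 and 22 were under 3 FPKM. The values of the 4 libraries did not overlap those of the rest. Acta1, skeletal muscle actin, stood at 14860.3 FPKM in F22, 868 in M14, 796 in M21 and 213 in M34 and at 2.3 to 43.2 elsewhere. Ckm, muscle creatine kinase, stood at 8316 in F22, 472 in M14, 498 in M21 and 148 in M34 and at 0 to 31.3 elsewhere. Cox6a2 amounted to 1.68% of the summed muscle markers in F22, 0.86% in M14, 1.18% in M21 and 0.993% in M34. Elsewhere this percentage ran from 0 (Female_KO_CL replicate 1) to 6.08 (Female_WT_CL replicate 1), so it does not set the 4 libraries apart. None of the 16 markers was at 0 in these 4 libraries, and up to 7 were elsewhere. Other columns, such as Female_WT_CL replicate 4 and Male_KO_NaCl replicate 2, also had none at 0.

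**Figure D3:**
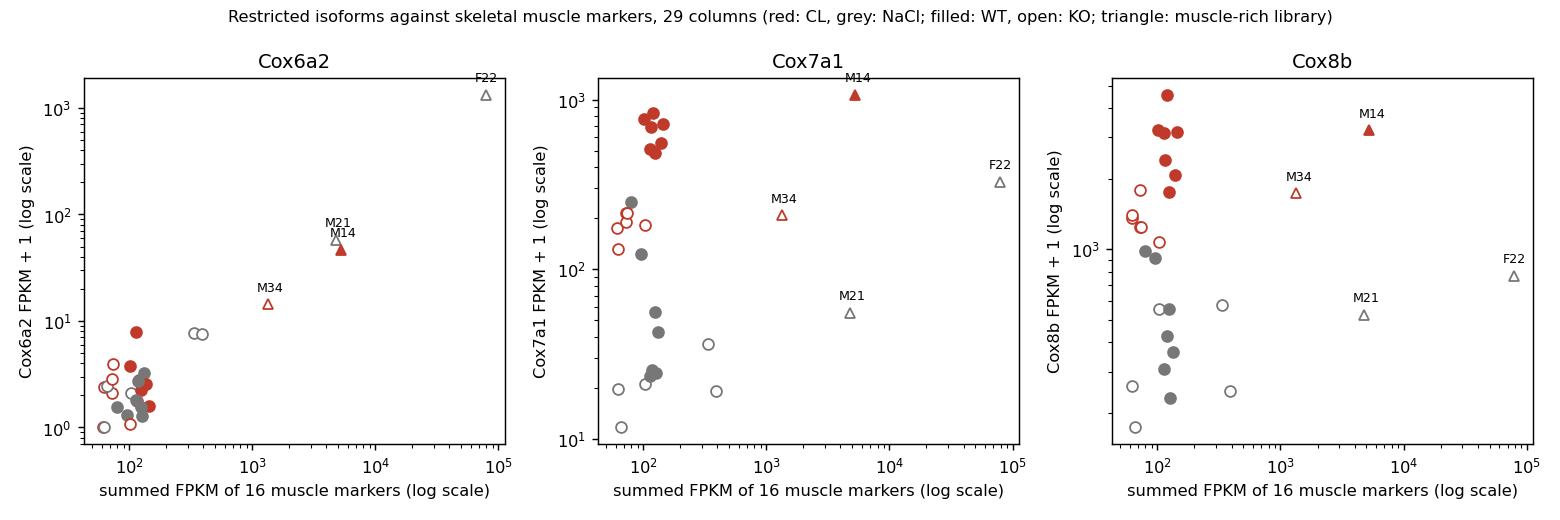
FPKM + 1 of Cox6a2, Cox7a1 and Cox8b against the summed FPKM of 16 skeletal muscle markers in each of the 29 columns, both axes log; red is CL and grey saline, filled wild type and open knockout, and triangles are the 4 muscle-rich libraries. Cox6a2 stands at 13.3 FPKM in M34, 45.3 in M14, 56.5 in M21 and 1322 in F22, and at 6.88 or less elsewhere, while Cox7a1 and Cox8b also reach high values at low marker levels.

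Of the muscle-rich libraries, F22 and M21 were saline and M14 and M34 were CL, and only M14 was wild type. They were unequally spread over the 4 strata of sex and genotype, with none in WT females. Cox6a2 passed the test in none of the 16 comparisons. CL differences were 1.39 ± 1.42 in WT males (limma adjusted p 0.614), −1.47 ± 2.19 in WT females (0.715), −3.38 ± 1.77 in KO males (0.264) and −4.21 ± 1.74 in KO females (0.155). Without the muscle-rich libraries they were 0.29 (limma adjusted p 0.799), 1.68 (0.234), −0.59 (0.744) and 0.58 (0.734), so the sign turned in females of both genotypes. In KO females F22 was left out. In WT females the same mice were compared, and the sign turned only through the table term. Without Female_KO_NaCl replicate 3, which was at 0, but with F22 kept, the difference in KO females was −7.81 (adjusted p 0.00111). The log2 ratio of Cox6a2 to Cox6a1 differed with CL by −1.58 (exact permutation p 0.115), lower in 2 of 4 strata, and by −0.73 without the muscle-rich libraries (adjusted exact permutation p 0.0369). In WT females the mean FPKM was higher with CL (3.02 against 0.848), opposite to the table-adjusted difference with all mice. In WT males the ratio turned from 0.21 with all mice to −0.84 without M14. At these levels the added 1 takes part in the ratio, since most values of Cox6a2 lie near it. The transcript of Cox6a2 also overlaps Itgad, an integrin gene, and whether counting used strand is not stated.

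Cox4i2 passed no test of a CL effect. Saline values in WT males were 10.8, 11.2, 10.8 and 13.3 FPKM, and CL values 11.0, 9.89, 9.91 and 12.6, which overlap. In WT females saline values of 10.3 and, for replicate 3, 14.3 and 14.5 overlapped CL values of 13.5, 10.9, 13.3 and 6.76. In KO males saline values were 7.37, 4.86 and, for replicate 3, 14.0 (first table) and 5.65 (second table), and CL values 10.5, 11.05, 9.00 and 13.2. In KO females saline values were 13.5, 4.54 and 5.71 and CL values 9.35, 11.4 and 11.0. The groups overlapped in every stratum. CL differences were −0.08 ± 0.23 in WT males (limma adjusted p 0.88), 0.11 ± 0.36 in WT females (0.88), 0.77 ± 0.29 in KO males (0.116) and 0.62 ± 0.28 in KO females (0.202). The last passed without Female_KO_NaCl replicate 1 (0.92, adjusted p 0.0151). Cox4i2 overlaps Bcl2l1 and the predicted gene Gm32057, with the same limit on strand.

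Cox4i1, its partner, held 993 to 1183 FPKM in saline WT males, 1020.2 to 1508 in saline WT females, 1122 to 1338 in saline KO males and 821 to 1155 in saline KO females, and with CL 2063 to 2503, 2413 to 2656, 1681 to 1975 and 1804 to 2111, without overlap in any stratum. It rose by 1.08 ± 0.10 in WT males (adjusted p 5.37e-07), 0.88 ± 0.16 in WT females (0.00694), 0.94 ± 0.13 in KO females (0.000147) and 0.50 ± 0.13 in KO males (0.0211). The call in KO males was lost without M21 (0.306) or M34 (0.0575) and without all 4 muscle-rich libraries (0.22, adjusted p 0.489), and in WT females without saline replicate 3 (0.0727). The log2 ratio of Cox4i2 to Cox4i1 fell with CL by 0.71 (exact permutation p 0.000537, adjusted 0.000717), lower in 4 of 4 strata. Cox4i2 made up 1.09% of the pair on saline and 0.484% with CL in WT males, 0.981% and 0.436% in WT females, 0.854% and 0.535% in KO females, and 0.612% and 0.606% in KO males. The knockout difference of the ratio was −0.13 over all strata (exact permutation p 0.553). It was −0.84 in saline males (exact permutation p 0.0286, adjusted 0.114) and 0.32 in CL-treated males (exact permutation p 0.0286, adjusted 0.0381). The latter call was lost without any 1 of the 8 mice (adjusted exact permutation p 0.0571 or 0.0762).

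Cox7a2l (gene ID 20463, chromosome 17, 83501917 to 83514333), also known as SCAF1, is not an isoform that replaces subunit 7a in free complex IV but a protein that attaches complex III to complex IV in respiratory supercomplexes. Its highest and lowest columns lay closer together, as a ratio, than those of the other 8 genes, with 129 to 240.05 FPKM over all 29 columns, and group means of 149 to 196. CL differences lay between −0.04 and 0.34 in the 4 strata (limma adjusted p 0.229 to 0.993). In KO females against KO males under CL it differed by 0.32 ± 0.11 (limma adjusted p 0.0758).

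Read as a group, 6 of the 9 genes rose with CL in WT males, where 5.35% of all genes tested did, and the median of the 9 was 1.08 against −0.05 over all genes. These were Cox4i1, Cox6a1, Cox7a1, Cox7a2, Cox8a and Cox8b. In KO females 5 of 9 rose (Cox4i1, Cox6a1, Cox7a2, Cox8a and Cox8b), against 5.14% of all genes, with a median of 0.94 against −0.02. The same 5 rose in WT females, against 2.01% of all genes, with a median of 0.88 against −0.04. In KO males 2 of 9 rose, Cox4i1 and Cox6a1, against 2.1% of all genes, with a median of 0.50 against 0.01. Without the muscle-rich libraries 6, 6, 6 and, in KO males, 1 passed, the last being Cox7a1, against 10.2%, 3.17%, 4.44% and 2.15% of all genes in either direction. Brown and beige adipocyte markers rose in the same contrasts, 8 of 10 in WT males, 6 in KO females, 2 in WT females and 2 in KO males, and macrophage markers fell, 2 of 7 in WT males, 1 in KO females, 1 in WT females and 7 in KO males. General adipocyte markers also rose in KO females (4 of 8). The part of any of these in the changes of the 9 genes was not tested.

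**Figure D4:**
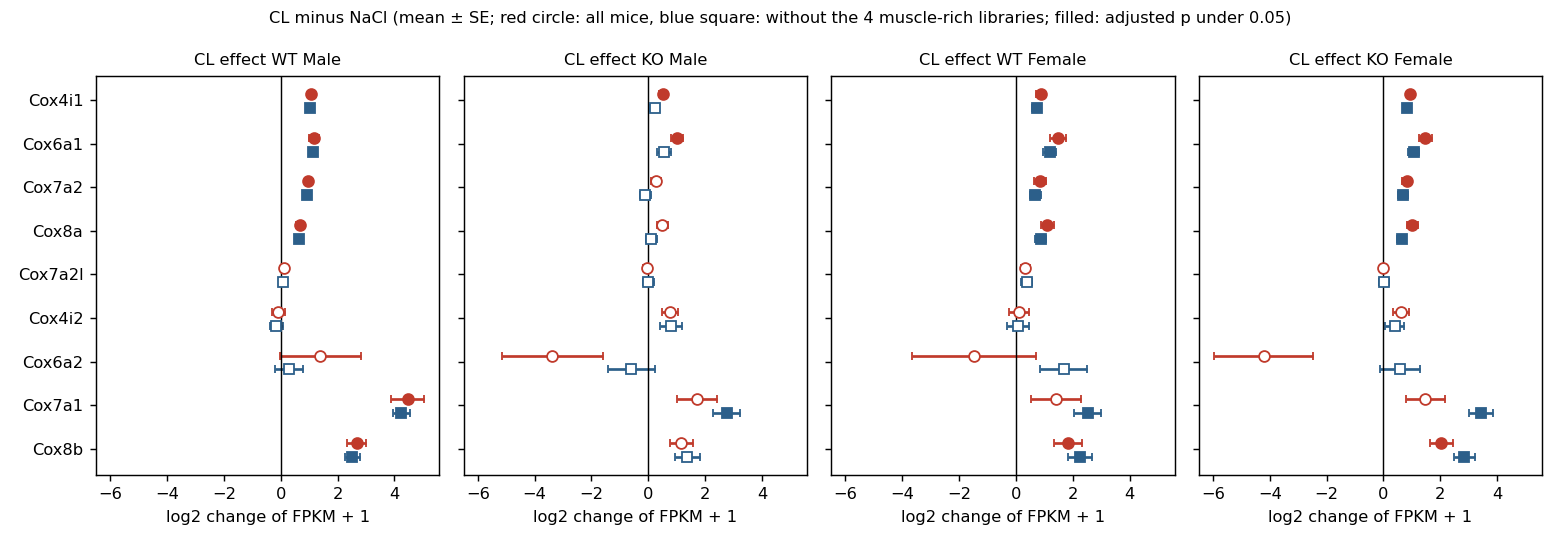
Difference CL minus saline of log2(FPKM + 1) for the 9 genes in each sex and genotype, mean ± SE; red circles use all mice, blue squares leave out the 4 muscle-rich libraries, and filled symbols have an adjusted p under 0.05. Cox7a1 has the largest difference in wild-type males (4.47), and its difference in the other 3 panels is larger without the muscle-rich libraries. No muscle-rich library is in wild-type females, where the difference moves only through the table term.

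The knockout effect under CL asks whether the treated fat of the genotypes differs. In females 5 of 9 genes were lower in the knockout, where 3.63% of all genes were, and the median of the 9 was −0.72 against 0.09. They were Cox6a1 (−0.93 ± 0.19, adjusted p 0.00705), Cox8a (−0.72 ± 0.16, 0.0105), Cox8b (−1.21 ± 0.36, 0.0321), Cox4i1 (−0.37 ± 0.11, 0.0342) and Cox7a1 (−2.03 ± 0.61, 0.0357). For each of these 5 genes every KO column lay below every WT column. They were named because they passed in this same comparison, so the separation is description and no further support. The share of all genes without overlap is not given. The calls of Cox4i1, Cox7a1 and Cox8b were lost without any 1 of the 3 knockouts or without WT replicate 2 or 3 (Cox7a1 0.0689 to 0.141, Cox8b 0.059 to 0.116), and that of Cox8a without KO replicate 3 (0.0651), while that of Cox6a1 remained in each. Without the muscle-rich libraries, none of which is in these groups, the same 5 and Cox7a2 (−0.43, adjusted p 0.0194) were lower, against 18.3% of all genes in either direction. Macrophage markers stood higher in the same comparison, with 6 of 7 passing and summed FPKM of 821 to 1421 in the knockouts against 503 to 707, and brown and beige markers lower, with 4 of 10 passing and sums of 293 to 405 against 929 to 1981. The part of either in these differences was not tested.

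In CL-treated males none of the 9 passed, against 1.94% of all genes in either direction (limma, 4 of 9 at an unadjusted p under 0.05), and their median was −0.28 against −0.06. Here and below, shares of all genes are at the adjusted p and are not comparable with counts at the unadjusted p. Cox7a2, at an unadjusted limma p of 0.0493, ranked 1830 of 13174 genes. Cox7a1 differed by −1.74 ± 0.57 (adjusted p 0.133), Cox8b by −0.83 ± 0.33 (0.248) and Cox4i1 by −0.31 ± 0.10 (0.137). For Cox7a1 the KO columns, at most 214 FPKM, lay below the WT columns, at least 484. For Cox8b they did not overlap, at most 1729 against at least 1746. Without the muscle-rich libraries, 1 of which is in each of these groups, Cox7a1 passed at −1.54 (adjusted p 0.0225), against 1.19% of all genes, and Cox8b did not (−0.80, 0.216). Brown and beige marker sums were 275 to 442 in KO males and 882 to 1917 in WT males, and their part was not tested.

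**Figure D5:**
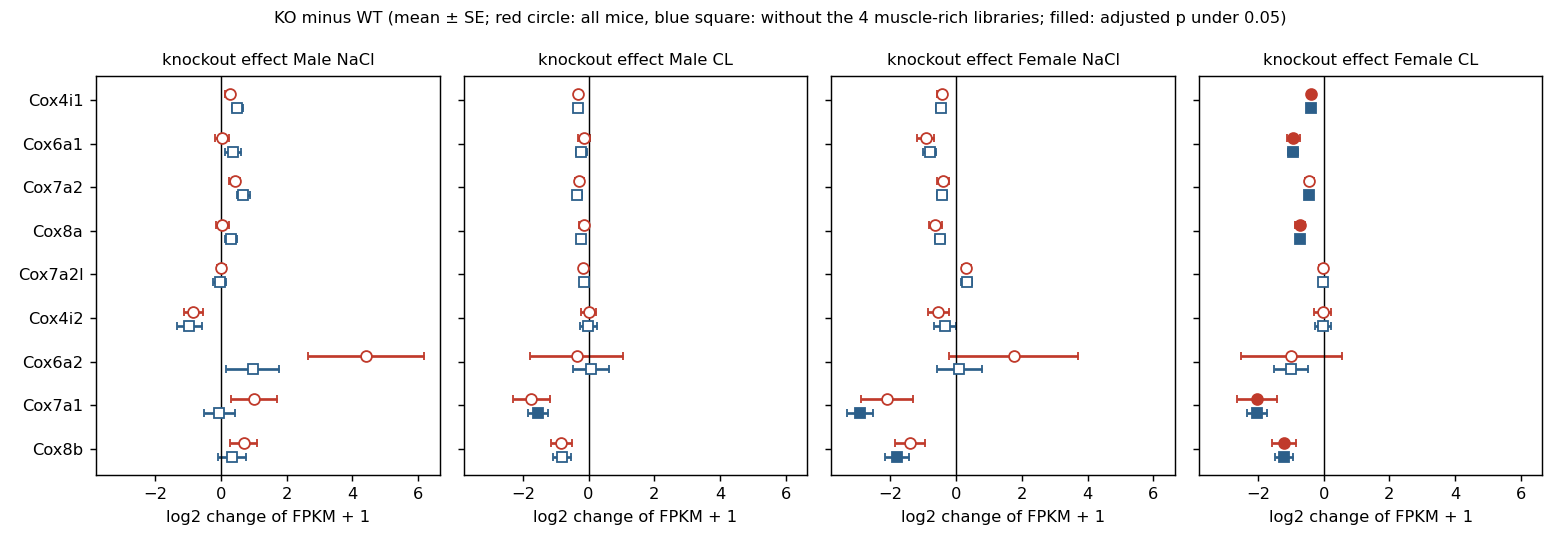
Difference knockout minus wild type of log2(FPKM + 1) for the 9 genes in each sex and treatment, mean ± SE; red circles use all mice, blue squares leave out the 4 muscle-rich libraries, and filled symbols have an adjusted p under 0.05. Of the all-mice values, 5 in CL-treated females are filled, and Cox6a2 in saline mice carries the widest error bars.

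Under saline, 0 of the 9 passed in females, against 0.509% of all genes at the adjusted p. At an unadjusted limma p under 0.05 there were 7 of 9, and Cox7a2l, at 0.0456, ranked 1141 of 13174 genes. Cox7a1 differed by −2.09 ± 0.79 (adjusted p 0.354), Cox8b by −1.40 ± 0.46 (0.244) and Cox6a1 by −0.93 ± 0.25 (0.118). F22 decided the first 2 values: without it Cox7a1 differed by −3.03 (0.000854) and Cox8b by −1.82 (0.0228), and both passed as lower in the knockout. Beside them 5 of 10 brown and beige markers and 2 of 7 mammary markers were lower in this comparison, and their part was not tested. Without KO replicate 3, Cox6a1 (−1.10, adjusted p 0.0202) and Cox8a (−0.78, 0.0436) passed. The 2 WT females of this comparison both have second-table values, and with first-table columns alone the difference of Cox7a1 was 0.92 (0.655), with F22 and 1 other knockout against 1 WT mouse. In saline males 0 of 9 passed, against 7.34% of all genes at the adjusted p. At an unadjusted limma p under 0.05 there were 3 of 9. Many genes met that threshold, since Cox4i1, at 0.0518, ranked 3460 of 13174. The 3 of 9 is therefore not read as a result about these genes. Cox4i2 differed by −0.84 ± 0.29 (limma adjusted p 0.0758), Cox7a2 by 0.43 ± 0.17 (0.118), Cox6a2 by 4.41 ± 1.77 (0.124) and Cox7a1 by 1.00 ± 0.71 (0.382). Without the muscle-rich libraries, of which M21 is in this comparison, Cox6a2 differed by 0.96 (limma adjusted p 0.495) and Cox7a1 by −0.05 (0.958). Beside Cox4i2, 5 of 10 mural markers were lower in these knockouts, with sums of 86.6 to 151 against 184 to 317 FPKM, and their part in its difference was not tested.

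Whether the answer to CL differs with genotype was tested as an interaction. None of the 9 passed in males (limma, 6 of 9 at an unadjusted p under 0.05), against 0.0531% of all genes at the adjusted p. The share of all genes at the unadjusted p is not given, so the 6 of 9 is not read as a result about these genes. Cox7a1 had −2.75 ± 0.91 (limma adjusted p 0.254), Cox8b −1.52 (0.277) and Cox4i1 −0.58 (0.199). Without the muscle-rich libraries Cox7a1 had −1.49 (limma adjusted p 0.423) and Cox8b −1.15 (0.497). None passed in females (limma, 0 of 9 at an unadjusted p under 0.05), against 0.0228% of all genes. A smaller answer of Cox7a1 and Cox8b to CL in the knockouts was therefore not established by this test.

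Between the sexes, 2 of the 9 were higher in CL-treated WT females than males, Cox6a1 by 0.65 ± 0.18 (adjusted p 0.0169) and Cox8a by 0.44 ± 0.15 (0.0498), against 7.81% of all genes. For both genes, which were named because they passed here, every female column exceeded every male column, a description and no further support. Mammary markers were higher in females in the same comparison (4 of 7), and in saline KO mice 5 of 7 mammary markers were higher and 5 of 8 adipocyte markers lower in females. Their part in the differences was not tested. The call of Cox8a was lost without any 1 of 7 of the 8 mice, and that of Cox6a1 without female replicate 2 (0.0618) or male replicate 3 (0.0722). In saline KO mice Cox8a was lower in females, with a difference of −0.66 ± 0.18 (0.0232), against 3.3% of all genes, with columns of 514 to 1152 against 1074 to 1789 FPKM that overlap, and 5 of the 6 leave-outs ended this call. Without F22, Cox8b passed there instead (−1.18, 0.0329), and without Female_KO_NaCl replicate 3 Cox6a1 (−0.82, 0.0105) and Cox7a2 (−0.52, 0.0452) did. In saline WT mice none passed (limma, 3 of 9 at an unadjusted p under 0.05), against 3.34% of all genes. Cox7a1 came closest there, with a difference of 3.12 ± 0.88 (limma adjusted p 0.0532). It ranged from 0.50 in the first table alone (0.814) to 4.44 with only second-table values of the repeated mouse (0.0109), passed at 3.42 (0.0399) without Male_WT_NaCl replicate 1 and at 2.01 (0.0319) without the muscle-rich libraries, and was 1.91 (0.118) with no table term. Neither of these saline WT groups holds a muscle-rich library, so leaving those out moved the difference of Cox7a1 only through the table term. In CL-treated KO mice none passed (limma, 1 of 9 at an unadjusted p under 0.05), against 11% of all genes. In the sex by treatment interactions none passed in WT mice (limma, 1 of 9 at an unadjusted p under 0.05) or KO mice (3 of 9), against 0.0228% and 0.0304% of all genes. The counts at an unadjusted p in these sex contrasts lack the share of all genes at that threshold and are not read as results about the 9 genes.

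Ucp1, the uncoupling protein of thermogenic adipocytes, is set beside these genes by its levels. It stood at 139 to 489.7 FPKM in CL-treated WT females and 219 to 529 in CL-treated WT males, against 11.45 to 18.4 and 6.97 to 23.8 in CL-treated KO females and males. Saline WT females held 24.9 (first table), 137 and 224 FPKM (both second table), the other saline columns 0.1 to 9.72. The saline WT females thus stood high for Ucp1, Cox7a1 and Cox8b among saline groups, and their brown and beige marker sums of 216 to 1250.03 reached above the 117 to 221 of saline WT males. The first-table column of replicate 3 held 41.6 FPKM of Cox7a1, 362 of Cox8b and the marker sum of 216. These lie within the saline WT males, all in the first table, at 22.6 to 55.1, 231 to 555 and 117 to 221. For Ucp1 that column, at 24.9, lay above their 0.29 to 3.41. Sex and table cannot be fully told apart here. Mammary epithelium markers summed to 239.6 to 15978 FPKM in those females, against 133 to 767 in the other female columns, and their part was not tested.

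Of 43 other genes of complex IV, its electron donor and its assembly, 37 were tested. With CL, 11 rose in WT males, 7 in KO females and 4 in WT females, and none fell. Of all genes tested 5.35%, 5.14% and 2.01% rose in the same order, and 2.1% in KO males. In KO males 0 passed (limma, 5 of 37 at an unadjusted p under 0.05, 2 higher and 3 lower). Cox5b, a subunit of the matrix side, rose by 1.22 ± 0.13 in WT males (adjusted p 3.19e-06), 1.03 ± 0.21 in WT females (0.0115) and 0.82 ± 0.17 in KO females (0.00431), and differed by 0.51 ± 0.17 in KO males (0.0724). Cox6b1, a subunit at the contact of complex IV monomers, rose by 1.12 ± 0.13 (8.2e-06), 0.85 ± 0.20 (0.0281) and 0.95 ± 0.16 (0.00126) in the first 3 of these. Cox6c rose by 1.23 ± 0.15 (9.41e-06) in WT males, and Ndufa4, a subunit first assigned to complex I, by 0.86 ± 0.21 (0.0284) in WT females and 0.70 ± 0.17 (0.0126) in KO females. The smallest p in KO males belonged to the assembly factor Coa3 (−0.31 ± 0.10, 0.0546), followed by Cox5b and the assembly factor Cox20 (−0.44 ± 0.15, 0.0806). In CL-treated females 10 of the 37 were lower in the knockout, against 3.63% of all genes. In CL-treated males 0 were (limma, 11 of 37 lower at an unadjusted p under 0.05), against 1.94% of all genes in either direction. The share of all genes at an unadjusted p is not given, so the counts of the 37 at that threshold are not read as results about these genes. Every change of a subunit named here that passed was smaller than that of Cox8b in the same mice.

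Genes most alike to each restricted isoform were sought by Pearson's r of log2(FPKM + 1) over the 23 mice other than the muscle-rich ones. These mice share groups, tables and libraries, so r is given as a description. For Cox7a1 they included Hadha (0.984) and Hadhb (0.982), the subunits of the mitochondrial trifunctional protein, then Acadvl (0.975) and Idh3b (0.971). For Cox8b they were Cox5b (0.98), Ndufb9 (0.975), Sdhb (0.97), Txnrd2 (0.968) and Ndufs3 (0.966). Cox7a1 and Cox8b had an r of 0.973 with each other, and 0.807 after each value was set against its group mean. With Ucp1, r was 0.918 for Cox7a1 and 0.876 for Cox8b, or 0.784 and 0.692 against group means. Values for Cox4i2 were lower, led by Rph3al (0.778), Actn1 (0.739), Meox1 (0.739), Spata13 (0.737) and Ache (0.736). For Cox6a2 they included Inafm1 (0.756), Rps6kb2 (0.75), Aup1 (0.736) and Galt (0.718), over values that mostly lie near the added 1.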

How the data were processed

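RNA from frozen subcutaneous fat was sequenced on a DNBSEQ instrument, per the labels. HISAT2 2.0.4 and the genome GRCm38/mm10 are named, per the submitters' processing notes, while the program behind the FPKM and its annotation are not given in the labels and files used here. Values are FPKM as deposited by the authors, in 1 table of 24 columns and 1 of 5, with 17536 genes in both, of which 17428 matched a RefSeq identifier. All 29 columns were used, and samples were grouped by title. No column was found for 2 of 29 sample records, replicate 2 of Female_WT_NaCl and replicate 4 of Male_KO_NaCl. FPKM carries no counts, so no intervals on depth are given.

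The 13174 genes that reached 1 FPKM in 3 or more mice were analysed as log2(FPKM + 1), computed here from the deposited FPKM, which understates changes of low genes. Repeated column names were averaged on the log2 scale. One limma fit (3.58.1, R 4.3.3, trend) held 8 group means and a table covariate (0, 1, or 0.5 for an average), with 18 residual and 2.92 prior degrees of freedom, 16 comparisons and Benjamini-Hochberg adjustment over all genes at 0.05. Values per column are shown unadjusted, and group means average repeated columns first. Isoform ratios, log2 of (restricted FPKM + 1) over (ubiquitous FPKM + 1), were tested by exact permutation (scipy 1.17.1, Python 3.11.15). On simulated data for the CL effect the fit called 82% of genes changed by 1 (log2) in WT males, 70% in KO males, 50% in WT females and 78% in KO females. These data held independent normal noise around each gene's overall mean, with no table effect and no muscle-rich libraries. The rates may therefore not hold for the measured values.

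The text names all 9 members, the 3 other complex IV genes with the smallest p in each CL effect, the 5 genes most alike to each restricted member (2 of these are not reported here), and Ucp1, Acta1, Ckm and Ncoa1. The members and lists were chosen with earlier results of these data known. Alternatives covered the pseudocount, filter, table term, repeated columns, scaling, replicate block, muscle-rich libraries and each mouse left out.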

Additional observations from a re-analysis of the deposited data

Results flagged for a closer look

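Of 52 sets of values from groups of 4 or more samples, 7 had 1 sample set apart from the rest by a gap that is large against the group's range (Dixon's 95% limit). Chance alone flags about 1 in 20 such groups. In Male_WT_NaCl, Cox7a1 stood at 55.1 FPKM in replicate 1 against 22.6, 23.4 and 24.5, and with it the share of Cox7a1 in its pair at 19.9% against 10.9%, 11.5% and 10.8%. In the same group Cox4i2 stood at 13.3 FPKM in replicate 4 against 10.8, 11.2 and 10.8. In Male_WT_CL, Cox6a2 stood at 45.3 FPKM in replicate 4, the muscle-rich M14, against 0.78, 1.25 and 1.57, and its share of the pair at 1.84% against 0.0319%, 0.0606% and 0.0895%. In Male_KO_CL, Cox8a stood at 2023 FPKM in replicate 4, the muscle-rich M34, against 1392, 1469 and 1375. In Female_WT_CL, Cox8b stood at 4553 FPKM in replicate 2 against 3148, 3231 and 3159.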

How the results depend on the processing

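With CL in WT males, 6 members passed under every alternative run. Other counts of members that passed moved as follows, and the cause of each move was not tested unless the setting itself removes mice or genes. The share of all genes that passed under each setting is not given beside these counts. A move is therefore not read as particular to these genes. A pseudocount of 0.1 gave 1 in the sex difference of saline WT mice. With no filter on low values, the sex difference of CL-treated WT mice held 1. With no table covariate, 1 passed in the knockout effect of saline females, 1 in the sex difference of saline WT mice and 1 in that of CL-treated WT mice. The first table alone gave 4 for CL in KO males, and for the sex differences 0 in saline KO mice, 1 in CL-treated WT mice and 1 in CL-treated KO mice. Using only the first of the columns that share a name gave 2 in the knockout effect of CL-treated females and 1 in the sex difference of CL-treated WT mice. Using only the second gave 2 for CL in WT females, 1 each in the knockout effects of saline males and saline females, and 2 (saline WT), 0 (saline KO) and 1 (CL-treated WT) in the sex differences. Counting them as separate mice gave 4 for CL in KO males, 1 and 2 in the knockout effects of saline and CL-treated females, and 2 in the sex difference of saline KO mice. Fitting only the groups compared gave 0 for CL in KO males, WT females and KO females, 1 and 2 in the knockout effects of CL-treated males and females, and 0 (saline KO) and 1 (CL-treated WT) in the sex differences. Quantile normalization gave 1 for CL in WT females, 1 and 2 in the knockout effects of saline and CL-treated females, and 2 (saline KO) and 0 (CL-treated WT) in the sex differences. It moved the median of all genes from 0.10 to −0.06 in the sex difference of saline KO mice and from 0.09 to −0.04 in that of CL-treated KO mice. Median-ratio scaling gave 1 for CL in KO males and 2 in the sex difference of saline KO mice. Without the 4 muscle-rich libraries, 1 passed for CL in KO males, 2 and 1 in the knockout effects of saline females and CL-treated males, and 1 (saline WT) and 4 (CL-treated WT) in the sex differences. With muscle markers as a covariate, 4 passed for CL in KO males, 2 and 1 in the same knockout effects and 1 in the sex difference of saline WT mice.

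No label says that a replicate number marks a litter or day. Over 12 pairs of mice with the same number, deviations from the group means correlated at −0.481 to 0.262, above 0.1 in 3, and 3 of 12 saline mice correlated best with their own number, so the numbers were not taken to pair mice. A fit with the replicate block gave 6 for CL in WT males and 5 in KO females, as without it, but 1 in KO males and 3 in WT females, and 2 (saline WT) and 1 (CL-treated WT) in the sex differences.

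Of the isoform ratios, the CL difference of Cox6a2/Cox6a1 was −2.62 in the first table alone (adjusted exact permutation p 0.0127) and −0.73 without the muscle-rich libraries (0.0369), and in WT males it turned from 0.21 to −0.84 without them or without M14, with a range of −0.84 to 0.74 when each mouse was left out. The knockout difference of Cox7a1/Cox7a2 was −1.12 with separate mice (0.0382) and −1.47 without the muscle-rich libraries (0.000381), and that of Cox8b/Cox8a −0.62 without them (0.0021). Leaving out each mouse in turn gave −2.09 to −0.68 for Cox6a2/Cox6a1 with CL, −1.44 to −0.88 for Cox7a1/Cox7a2 and −0.59 to −0.18 for Cox8b/Cox8a with the knockout. It gave 1.91 to 2.47 for Cox7a1/Cox7a2, 1.41 to 1.83 for Cox8b/Cox8a and −0.79 to −0.58 for Cox4i2/Cox4i1 with CL. Without Female_KO_NaCl replicate 3 or Male_WT_CL replicate 4, Cox6a2/Cox6a1 passed (0.0471 and 0.0181). Leaving out each mouse gave counts of 0 to 2 for CL in KO males, 1 to 5 in WT females and 5 to 6 in KO females, 1 to 6 and 0 to 2 in the knockout effects of CL-treated and saline females, and 0 to 3 (saline KO), 0 to 2 (CL-treated WT) and 0 to 1 (saline WT) in the sex differences.

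FPKM hides the depth of each library, and most values of Cox6a2 lie near the added 1. Groups of 2 to 4 mice and a second table that holds saline mice only limit every contrast with saline WT females.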
